A study of Mus musculus with 7 samples.

Results

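Hexokinases phosphorylate glucose once it has entered a cell, which traps it and feeds glycolysis, the pentose phosphate pathway and the hexosamine pathway. Hk1 is the form found in most tissues, Hk2 is an inducible form that can dock on the outer mitochondrial membrane and is often raised in tumors, Hk3 is best known from myeloid cells, and Hkdc1 is a relative of Hk1. In mouse mammary tumors the epithelium is mixed with fibroblasts, macrophages, lymphocytes and vessels, so a hexokinase measured in the whole tumor can come from several cell types. The 4 genes Hk1, Hk2, Hk3 and Hkdc1, of 33710 gene symbols in the deposited tables (mitochondrial genes left out), are described here across the cell classes of these tumors. The cell classes were chosen by the UMIs of marker genes, none of which is a hexokinase, and one subset of fibroblasts was chosen by its Hk2 UMIs.

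The data were Drop-seq tables of primary mammary tumors from 7 mice, 1 library each, of the genotype MMTV-PyMT; HK2 f/f on a C57BL/6 background. The MMTV promoter drives the polyoma middle T oncogene in mammary epithelium, and both Hk2 alleles carried loxP sites but no Cre was present, so that these were the control tumors of a study of HK2 deletion. GEO's genotype field calls them wild type and gives their time as 3 months after a tumor could be felt. Per the study's methods, controls also received tamoxifen, and tumors were digested with collagenase and treated with a red-cell lysis buffer. Tumors with HK2 deletion were not analysed here. Sample titles fall into a series marked CB (mice 1, 2, 3 and 4) and a series marked WT (mice 5, 7 and 8), with no statement of what these marks mean.

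Barcodes were taken as cells when they held between 200 and 6000 genes, which gave 15047, from 1133 to 4780 per mouse, with 962677 to 4471473 UMIs (unique molecular identifiers, which mark single captured transcripts) per mouse and a median of 527 to 694 UMIs per cell. The libraries shared 0 or 1 cell barcodes in each of 21 pairs. A cell entered a class when it held at least 5 UMIs of that class's marker list and of no other class's list. Lists of B/plasma, dendritic and pericyte or smooth muscle cells also barred a cell. As an exception, hormone-sensing and myoepithelial cells could pass the tumor list as well. These rules gave 7024 tumor, 713 hormone-sensing, 171 myoepithelial, 947 fibroblast, 70 endothelial, 1474 macrophage and 778 T/NK cells. These names stand for cells with such markers and no more. Each marker of the other lists was highest in its own class, but in the tumor list 5 of 9 were, with Krt8, Krt18 and Epcam highest in the hormone-sensing class and Trf in the myoepithelial class. The same markers chose the classes, so these ranks are no check of them. Mouse 8 stood apart, with fibroblast-class cells holding 33.6% of its UMIs against 2.42% at the lowest, and with hemoglobin and other erythroid transcripts at 9284 CPM (CPM is the UMIs of a gene scaled to the total UMIs of the class) in its fibroblast class. Tumor markers summed to a mean of 27297 CPM in the hormone-sensing class and 39181 CPM in the myoepithelial class, beside 53070 CPM in the tumor class.

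Hk2 (chr6:82725025-82774454, minus strand, GRCm38) was highest in fibroblast-class cells in each of the 7 mice. Its levels there were 689.9, 481, 205, 234, 339.6, 205 and 479 CPM in mice 1, 2, 3, 4, 5, 7 and 8, resting on 47, 27, 7, 39, 26, 34 and 155 UMIs. Levels varied over mice, and mice 3, 4 and 7 were the lowest, but the lowest of them lay above the highest macrophage value. In macrophage-class cells the levels were 123, 139, 52.2, 49.2, 85.4, 97.3 and 133 CPM in the same order. In tumor-class cells they were 52.6, 64.0, 22.2, 28.2, 54.3, 18.2 and 62.1 CPM. Within a mouse the fibroblast level was 6.26 to 13.1 times the tumor level, and the macrophage level was 1.57 to 5.34 times the tumor level.

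**Figure D1:**
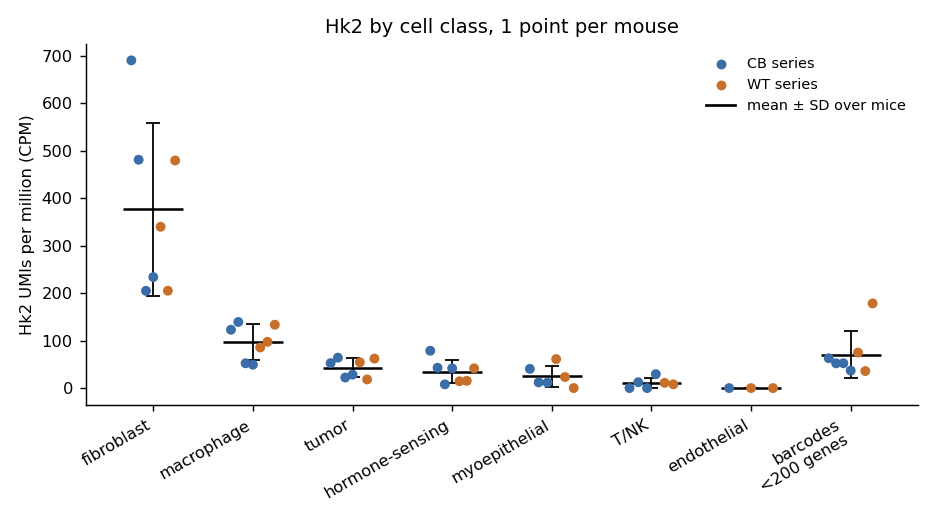
Hk2 level in CPM (vertical axis) for each marker-defined class and for barcodes with under 200 genes; each point is 1 mouse, colored by title series, and black bars give the mean and SD over mice. Every fibroblast-class point lies above every macrophage-class point, and the barcodes of mouse 8 with under 200 genes, at 178 CPM, lie above the tumor class.

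Over mice, the order of mean Hk2 levels was fibroblast (376 ± 183 CPM, SD, n = 7), macrophage (97.1 ± 37.0, n = 7), tumor (43.1 ± 19.5, n = 7), hormone-sensing (34.5 ± 24.5, n = 7), myoepithelial (24.7 ± 22.4, n = 6), T/NK (10.1 ± 10.8, n = 6) and endothelial cells (0, n = 3). The macrophage level exceeded the tumor level in 7 of 7 mice although the ranges overlapped. Tumor and hormone-sensing cells differed by 8.54 ± 22.4 CPM within a mouse (SD, n = 7), and hormone-sensing and myoepithelial cells by 8.47 ± 34.4 CPM (SD, n = 6), so these neighbours did not differ beyond their spread. Myoepithelial exceeded T/NK cells in 4 of 5 mice that had both, with an SD of the difference of 26.6 CPM that exceeded its mean. In the 3 mice with enough endothelial cells no Hk2 UMI was seen among 51188 UMIs, which allows a level of up to 58.6 CPM (3 counts), above the tumor mean, so that no fold change can be given.

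Each class was set against the tumor class in edgeR (quasi-likelihood, mouse as block) on summed UMIs of 5710 genes. By edgeR, Hk2 was higher in the fibroblast class by 3.32 ± 0.21 on the log2 scale (SE, adjusted p = 3.1e-20). In the macrophage class it was higher by 1.53 ± 0.24 (SE, edgeR adjusted p = 2.9e-07), or 2.90-fold. For reference, 23.7% of all genes were called higher in the fibroblast class and 24.5% in the macrophage class. In the T/NK class Hk2 fell by 1.46 on the log2 scale (SE 0.50, edgeR adjusted p = 0.013), where 26.1% of genes were called lower and 22.0% higher. The log2 difference was -0.14 ± 0.26 in the hormone-sensing class (SE, edgeR adjusted p = 0.77) and -0.59 ± 0.45 in the myoepithelial class (SE, edgeR adjusted p = 0.56), neither of which passed the test, and 19.9% and 5.36% of genes were called there in either direction. In the endothelial class neither Hk1 nor Hk2 passed, beside 18.2% of genes.

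The fibroblast and macrophage differences of Hk2 held within both title series. For the fibroblast class the log2 difference was 3.49 in the CB mice alone and 3.25 in the WT mice alone, and 3.21 without mouse 8. For the macrophage class it was 1.19 and 1.67 in the CB and the WT mice alone, and 1.43 without mouse 8. The lower T/NK level rested on 7 UMIs and lost its call with at least 3 marker UMIs per cell (adjusted p = 0.064) or at least 500 genes per cell (adjusted p = 0.145), and in the WT mice alone (adjusted p = 0.134, all edgeR).

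In numbers of cells, an Hk2 UMI was seen in 210 of 947 fibroblast-class cells (22.2%, exact 95% interval 19.6 to 25.0%), at a median depth of 694 UMIs per cell. The share was 5.43% of macrophage-class cells (median depth 612.5 UMIs) and 3.79% of tumor-class cells (median 661). Hormone-sensing cells were deeper, with a median of 1805 UMIs, and 8.13% of them had an Hk2 UMI. With each cell thinned to 300 UMIs, which left out 80 fibroblast-class and 670 tumor-class cells, the shares became 8.42% for fibroblasts, 2.10% for macrophages, 1.23% for tumor cells, 0.705% for hormone-sensing cells and 0.284% for T/NK cells (2 cells). Among fibroblasts with an Hk2 UMI, 141 held exactly 1 and 69 held 2 or more, up to 9 in 1 cell. These intervals and floors cover counting error only and leave out the spread between mice.

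Free RNA in droplets can place a transcript in cells that do not make it, so Hk2 was also read in barcodes with under 200 genes. Its level there was 62.8, 52.2, 52.2, 36.8, 74.7, 35.8 and 178 CPM in mice 1, 2, 3, 4, 5, 7 and 8. Fibroblast-class cells lay above these barcodes in 7 of 7 mice, at a median of 5.73 times their level, and macrophage-class cells lay above them in 5 of 7. Tumor-class cells lay above them in only 1 of 7 mice, at a median ratio of 0.726, so that a level above the low barcodes was not seen for Hk2 in the tumor class of most mice. Hormone-sensing cells lay above them in 2 of 7 mice, myoepithelial and T/NK cells in 0 of 6 each, and endothelial cells in 0 of 3. These barcodes can hold damaged cells as well as free RNA, and which of these they hold was not tested. The 4 fibroblast markers in tumor-class cells stood at 0.0658 to 0.797% of their level in the fibroblast class of the same mouse. Hk2 stood at 7.62 to 16.0% of its fibroblast level. The same markers chose the fibroblast class, and cells with 5 or more of their UMIs were barred from the tumor class. Both rules lower the marker percentages, so these are no measure to set Hk2 beside. The source of Hk2 UMIs in tumor-class cells was not tested.

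Pooled over mice, the fibroblast class held 34.2% of the 979 Hk2 UMIs of all cells with 5.60% of all UMIs. The tumor class held 31.7% of Hk2 UMIs with 51.3% of all UMIs. Both shares varied over mice, as did the number of fibroblasts in a library, and a relation between these was not tested. The fibroblast share of Hk2 UMIs ran from 15.9% to 70.5% over mice, the highest being in mouse 8.

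Hk1 (chr10:62268855-62379908, minus strand) had its lowest mean in macrophages. In tumor-class cells its level was 62.2, 56.8, 48.6, 35.7, 68.5, 59.9 and 102 CPM in mice 1, 2, 3, 4, 5, 7 and 8, and in macrophage-class cells it was 17.5, 0, 10.4, 8.55, 33.2, 9.73 and 20.5 CPM. The ranges did not overlap. By edgeR, Hk1 in the macrophage class fell by 1.55 on the log2 scale against the tumor class (SE 0.38, adjusted p = 4.7e-04), where 23.2% of genes were called lower. The mean level was 58.3 ± 35.4 CPM in hormone-sensing cells (SD, n = 7), 55.7 ± 32.5 in myoepithelial cells (n = 6), 52.9 ± 31.1 in T/NK cells (n = 6) and 35.3 ± 23.1 in fibroblast-class cells (n = 7). None of these passed the test against the tumor class, the fibroblast class being lower in 6 of 7 mice with a log2 difference of -0.56 ± 0.34 (SE, edgeR adjusted p = 0.18). Of the neighbours in this order none differed beyond the spread over mice, with fibroblasts above macrophages in 5 of 7. Endothelial Hk1 rested on 4 UMIs in 1 mouse. Against barcodes with under 200 genes, which held Hk1 at 20.7 to 48.2 CPM, the tumor level was higher in 7 of 7 mice and the macrophage level in 1 of 7. The tumor level was 1.01 to 4.95 times that of these barcodes, with a median of 1.31. In mouse 3 the 2 levels were nearly equal, at 48.6 and 48.2 CPM.

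**Figure D2:**
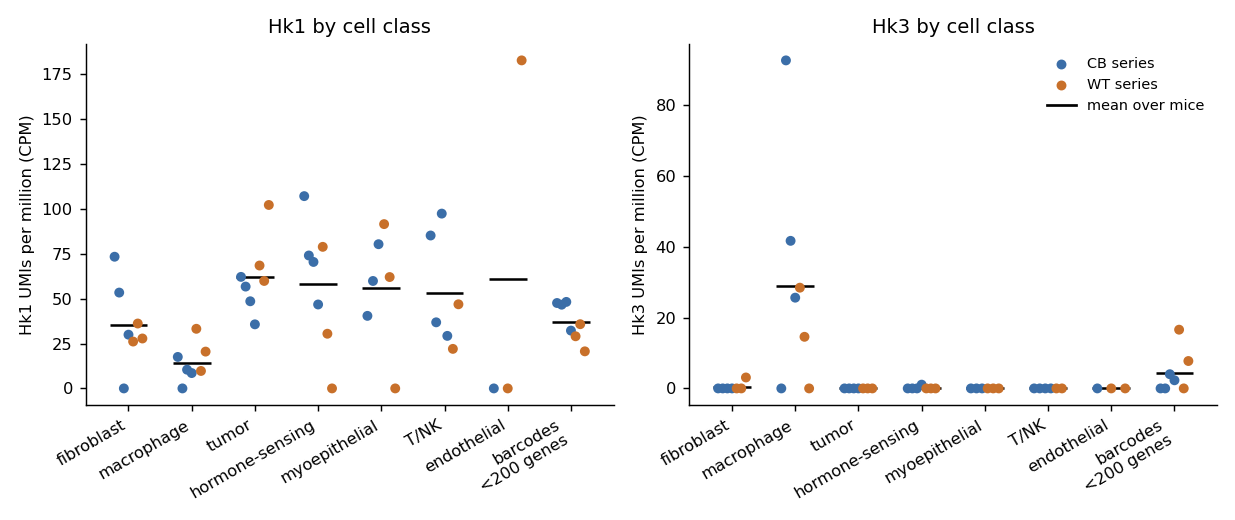
Hk1 (left) and Hk3 (right) levels in CPM for each class and for barcodes with under 200 genes; each point is 1 mouse, colored by title series, and black lines are means. Hk1 lies lowest in the macrophage class, at 0 to 33.2 CPM, and Hk3 lies at or near 0 outside the macrophage class and the low barcodes.

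Hk3 (chr13:55005985-55021385, minus strand) was seen mostly in macrophage-class cells. Its level there was 0, 92.8, 41.7, 25.7, 28.5, 14.6 and 0 CPM in mice 1, 2, 3, 4, 5, 7 and 8, from 31 UMIs, and mice 1 and 8 had none. Among the other classes 1 UMI fell in a fibroblast-class cell and 1 in a hormone-sensing cell. Tumor-class cells held none in 8171516 UMIs, which allows up to 0.367 CPM. Of 45 Hk3 UMIs in all cells, 68.9% were in the macrophage class and 24.4% in cells that passed no marker list. Hkdc1 (chr10:62383137-62422491, minus strand), the neighbour of Hk1 on chromosome 10, had 4 UMIs in all cells, of which 3 were in the tumor class. Neither gene passed the filter on low counts, so neither has a test. Hk1, Hk2 and Hk3 each overlap an annotated gene on the opposite strand (Hk1os, Gm17034 and Unc5a), and reads of such a pair cannot be told apart if strand was not used in counting.

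The balance between the main forms also changed with class. Hk2 made up 91.8% of the 365 Hk1 and Hk2 UMIs in fibroblast-class cells (exact 95% interval 88.5 to 94.4%) and 84.8% of 112 in macrophage-class cells (76.8 to 90.9%). In tumor-class cells it made up 40.6% of 763 (37.1 to 44.2%), and in hormone-sensing cells 39.3% of 183. These intervals pool UMIs over mice. In single mice the share ran from 85 to 100% in the fibroblast class, 72 to 100% in the macrophage class and 23.3 to 53.0% in the tumor class. In the hormone-sensing class it ran from 10 to 100%, the highest resting on 1 UMI in mouse 8. Hk2 UMIs outnumbered Hk1 UMIs in 7 of 7 mice in the fibroblast class and in 7 of 7 in the macrophage class, against 1 of 7 in the tumor class. Myoepithelial and T/NK cells, at 25.6% of 43 and 25.0% of 28, were on the side of Hk1 with wide intervals. These shares are of 3′ UMIs, and capture may differ between the genes, so the comparison is between classes and not between the genes' true amounts.

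**Figure D3:**
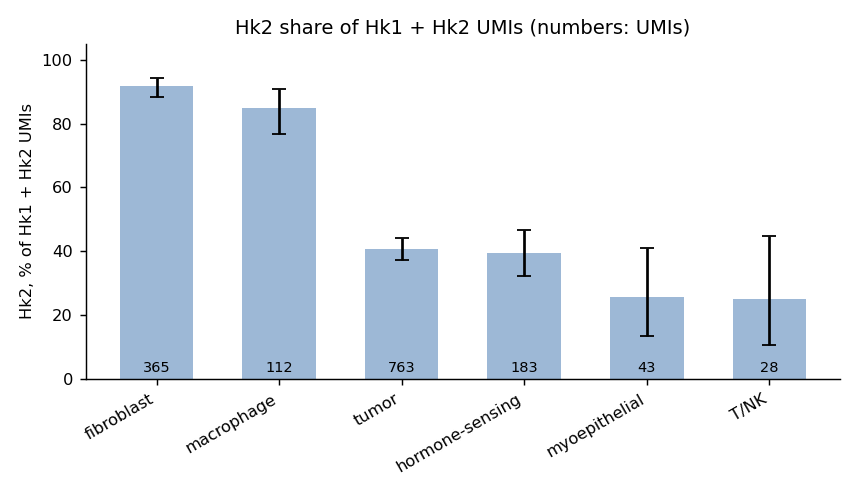
Hk2 as a percent of Hk1 plus Hk2 UMIs (vertical axis) in 6 classes, pooled over mice. Error bars are exact 95% binomial intervals, which leave out the spread between mice, and the number in each bar is its UMIs. Fibroblast and macrophage cells stand at 91.8% and 84.8%, and the other classes at 40.6% or below.

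The start of Hk2 is shown because hypoxia-response genes are among the lists examined in fibroblasts. Hypoxia-inducible factors can bind a core of the letters ACGTG, and no other form of the core was searched. The 250 bases before the RefSeq start of Hk2 (chr6:82774455-82774704, GRCm38.p6, minus strand), read 5′ to 3′ toward the start, hold 2 such cores on the opposite strand, in capitals as CACGT, beginning 226 and 52 bases before the start.
Hk2: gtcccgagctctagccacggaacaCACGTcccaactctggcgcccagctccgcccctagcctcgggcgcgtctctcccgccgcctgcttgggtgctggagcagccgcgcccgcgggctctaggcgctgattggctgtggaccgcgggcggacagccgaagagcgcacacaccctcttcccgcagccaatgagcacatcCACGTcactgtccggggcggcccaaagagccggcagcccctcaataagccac
Of 32851 such windows of 250 bases, 16.6% hold ACGTG or CACGT. The same search found 1 match before the start of Hk3 and none before Hkdc1 or either of the 2 listed starts of Hk1. A match is only a run of letters.

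In fibroblast-class cells, Slc2a1, the widely expressed glucose transporter, was at 34.6 ± 19.6 CPM against 89.0 ± 32.5 in tumor-class cells (SD, n = 7), and was lower in 7 of 7 mice (log2 difference -1.37 ± 0.33, SE, edgeR adjusted p = 4.7e-04), although it did not pass in the CB mice alone. It was the only one of the 8 genes listed for glucose entry and the hexokinase step to pass the filter. In the macrophage class Slc2a1 was lower as well, at 39.5 ± 11.5 CPM (log2 difference -0.69 ± 0.28, SE, edgeR adjusted p = 0.035), a call that was lost without mouse 5 and in the CB mice alone.

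Of 13 genes of glycolysis below hexokinase, 11 were tested, and in the fibroblast class 10 were lower than in the tumor class and none was higher, with a median log2 difference of -1.30 beside -0.10 over all genes and 22.6% of genes called lower. Pkm, pyruvate kinase, was at 172 ± 53.8 CPM against 707 ± 76.2 (SD, n = 7). Ldha, which turns pyruvate to lactate, was at 328 ± 102 against 912 ± 166 CPM. Aldoa, at 259.9 against 756 CPM, and Eno1, at 62.5 against 293 CPM, were also lower in 7 of 7 mice. The gene that did not pass was Pfkp, a phosphofructokinase (log2 difference 0.25 ± 0.30, SE, edgeR adjusted p = 0.52). In every one of 17 alternative settings 6 to 10 of the genes were lower and none higher, with 6 where the mouse was not a block and 6 of 9 in the CB mice alone. Several of these genes have near-identical pseudogene copies, to which reads can be lost in counting.

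In the macrophage class the same list was split. Gpi1, Pfkfb3, Gapdh and Pgk1 were higher than in the tumor class and Pfkl was lower, with a median log2 difference of -0.00090 beside -0.08 over all genes. Over 17 alternative settings 1 to 4 were higher and 0 to 4 lower. Pfkfb3, whose product drives phosphofructokinase, was at 76.7 ± 28.5 CPM against 31.2 ± 7.41 (SD, n = 7) and higher in 7 of 7 mice, with a log2 difference of 1.55 ± 0.31 (SE, edgeR adjusted p = 3.0e-05). Aldoa, Pkm and Ldha did not pass. Over all genes 24.5% were called higher and 23.2% lower in this class. In the T/NK class 6 of 11 were lower and none higher, beside 26.1% and 22.0% over all genes, among them Pkm (log2 difference -1.36) and Pfkl (-2.89). In the hormone-sensing class Pfkfb3 was higher and Ldha, Pfkl and Pfkp were lower, 4 of 11 beside 19.9% over all genes. Without mouse 4 this fell to 0 higher and 1 lower, in the WT mice alone also to 0 and 1, and in the CB mice alone to 0 and 0 of 9. In the myoepithelial class none passed, beside 5.36%. In the endothelial class Aldoa, Ldha, Pfkl and Tpi1 were lower and none was higher, 4 of 11 beside 18.2% over all genes in either direction. The median log2 difference there was -0.91 beside -0.79 over all genes. With DESeq2 size factors the median over all genes moved by -0.11 in both the macrophage and the T/NK class, and DESeq2 moved it by 0.24 in the endothelial class.

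**Figure D4:**
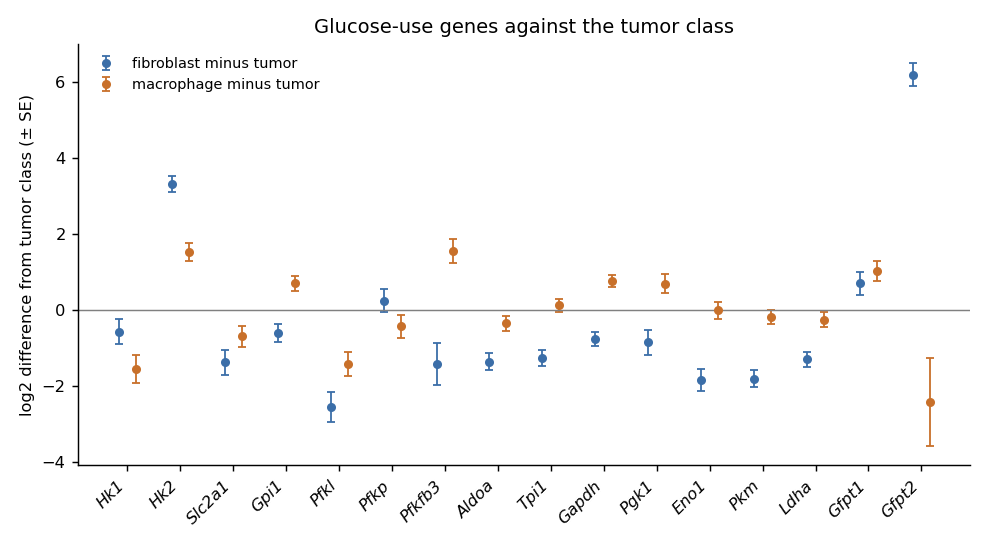
Log2 difference from the tumor class (vertical axis, edgeR estimate ± SE) for Hk1, Hk2 and other genes of glucose use, in fibroblast-class (blue) and macrophage-class (orange) cells. Hk2 and Gfpt2 stand above 0 in fibroblasts, at 3.32 and 6.19, while most glycolytic genes stand below it.

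Among 7 genes of side branches from glucose 6-phosphate, 5 were tested, of which 2 were higher and 1 lower in fibroblasts (23.7% and 22.6% over all genes) and 2 higher in macrophages (24.5%). Gfpt2, a form of the enzyme that opens the hexosamine pathway, was the most different, at 807, 588, 380.2, 264, 366, 452 and 1175 CPM in fibroblast-class cells of mice 1, 2, 3, 4, 5, 7 and 8. In tumor-class cells it was at 3.39, 12.1, 3.17, 9.06, 5.17, 1.76 and 51.1 CPM, and the groups did not overlap. The log2 difference was 6.19 ± 0.31 (SE, edgeR adjusted p = 6.1e-25). Pgm1 was also higher in fibroblasts (1.32 ± 0.43, SE) and Pgd, of the pentose phosphate pathway, was lower (-0.62 ± 0.23, SE), a call that was lost without mouse 4, without mouse 5 and within either title series. Pgm1 did not pass with at least 3 marker UMIs or in the WT mice alone, and it had too few counts for the test with at least 8 marker UMIs, without mouse 2, 7 or 8, and in the CB mice alone. In macrophages Pgd (0.71 ± 0.18, SE) and Gfpt1 (1.03 ± 0.27, SE) were higher, calls that were both lost with at least 500 genes per cell and with no filter on low counts, and Gfpt2 had 1 UMI in 7 mice. In hormone-sensing cells G6pdx, Gfpt2 and Pgm1 were higher, by 1.38, 2.30 and 1.49 on the log2 scale, beside 19.9% of genes called in either direction. In the WT mice alone 0 of 4 tested were called, and without mouse 2 or mouse 7 only 2 of the list were tested and 1 was called.

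Of 8 docking and scaffold partners, which include the mitochondrial channel genes Vdac1, Vdac2 and Vdac3 and the kinase genes Gsk3a and Gsk3b, 7 were tested. With 1 higher and 1 lower in fibroblasts and 2 higher in macrophages, their shares were near those over all genes (23.7%, 22.6% and 24.5%), so the calls are no result about the list. In fibroblasts Vdac1 was lower (-0.92 ± 0.23, SE) and Prkacb, a catalytic subunit of protein kinase A, was higher (1.21 ± 0.36, SE). Over 17 alternative settings 0 to 1 of the list were higher and 0 to 2 lower in this class, so these calls did not hold in every setting. In macrophages Vdac2 (0.68) and Prkacb (0.84, edgeR adjusted p = 0.049) were higher, with 0 to 2 of the list higher and 0 to 2 lower over the alternative settings. In T/NK cells Prkacb was higher (2.11) and Gsk3b (-0.65) and Vdac1 were lower, beside 22.0% of all genes called higher and 26.1% lower. Over the alternative settings 1 to 2 of the list were higher and 1 to 3 lower there. Prkar1a, the regulatory subunit, was at 239 CPM in fibroblasts, 196 in macrophages and 250.3 in tumor cells and did not pass in the fibroblast, macrophage or T/NK class. The list's median difference in the fibroblast class was -0.02, beside -0.10 over all genes.

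Genes with the pattern most like a hexokinase over the 7 classes were ranked by Pearson's r of mean log2(CPM + 10), among 10422 genes with at least 100 UMIs. The 7 points share libraries and depth, so r is a description. For Hk2 they were Ap2a2 (r = 0.983), an adaptor subunit of endocytosis, Idh1 (0.981), the cytosolic isocitrate dehydrogenase, Fbxl18 (0.979), Htt and Rny3 (0.965). Idh1 was at 117 CPM in fibroblasts, 50.4 in macrophages and 31.8 in tumor cells. Fbxl18, Htt and Rny3 had 103 to 118 UMIs in all. Like Hk2, the genes Idh1, Fbxl18, Htt and Rny3 were at 0 CPM in the endothelial class. For Hk2 this 0 allows up to 58.6 CPM, so the match at this point is uncertain. For Hk1 they were Golga7, Oxr1, Pum3, Prkag1 and Phc3 (r = 0.992 for Golga7 and 0.973 for Phc3), which likewise were lowest in macrophages. For Hk3 they were Fcgr4, Lilra5, Atp6v0d2, Gdf3 and Il10 (r = 0.9995 for Fcgr4 and 0.9994 for Il10), each at 104 CPM or more in macrophages and at 1.32 CPM or less in the other classes.

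The last comparison asked which genes accompany Hk2 UMIs inside fibroblasts. Fibroblast-class cells with an Hk2 UMI numbered 22, 14, 7, 30, 16, 20 and 101 in mice 1, 2, 3, 4, 5, 7 and 8, against 57, 30, 43, 168, 30, 134 and 275 without one. Hk2 chose the cells and was taken out of the table. Cells with an Hk2 UMI were deeper in each mouse, with a median of 679 to 1968.5 UMIs against 423 to 879. UMIs were summed per mouse and compared by edgeR with the mouse as block, across 548 genes. Of these 8 were called higher (1.46%) and 4 lower (0.730%), and 71 had an unadjusted p under 0.05.

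The 8 genes higher with Hk2 were Tnfaip6, Mt2, Ptx3, Cxcl1, Mt1, Ccl2, Prg4 and Serpina3n. Tnfaip6, which encodes a hyaluronan-binding protein induced in inflammation, was at 4318, 2641, 3523, 2752, 2717, 1656 and 2907 CPM in cells with Hk2 of mice 1, 2, 3, 4, 5, 7 and 8. In cells without it the values were 2923, 852, 2630, 1284, 1439.5, 974 and 1669 CPM. Each mouse moved the same way, and the log2 difference was 0.85 ± 0.14 (SE, edgeR adjusted p = 0.0042). The metallothionein genes Mt1 and Mt2, which encode metal-binding proteins, were higher in 7 of 7 mice, by 0.55 ± 0.12 and 0.77 ± 0.13 on the log2 scale (SE, edgeR adjusted p = 0.019 and 0.0043). Ptx3, a soluble pattern-recognition protein, was at 1290.1 ± 974 CPM with Hk2 and 649 ± 552 without (SD, n = 7), higher in 6 of 7 mice. The chemokine genes Cxcl1 and Ccl2 were higher in the same 6 mice, by 1.01 ± 0.20 and 0.89 ± 0.21 on the log2 scale (SE, edgeR adjusted p = 0.013 and 0.026). In mouse 3, with 7 cells holding Hk2, Ptx3, Cxcl1 and Ccl2 moved the other way.

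The 4 genes lower with Hk2 were Postn, Timp3, Igfbp5 and Serpine2. Postn, periostin of the extracellular matrix, was at 1932 ± 886 CPM with Hk2 and 3273 ± 787 without (SD, n = 7), lower in 6 of 7 mice (log2 difference -0.86 ± 0.17, SE, edgeR adjusted p = 0.013). Timp3, an inhibitor of metalloproteinases, was lower in 7 of 7 mice (-0.95 ± 0.20, SE, adjusted p = 0.015 by edgeR), and in mouse 3 it had no UMI in the 7 cells. Igfbp5 and Serpine2 were lower in 5 and 6 of 7 mice, by -0.95 ± 0.20 and -1.10 ± 0.26 (SE). Some of these transcripts were as high or higher in other classes. Igfbp5, an insulin-like growth factor binding protein, was at 1445 CPM in fibroblasts, 3973 in tumor cells and 6796 in myoepithelial cells. Timp3 was at 909 CPM in fibroblasts and 1446 in myoepithelial cells, whereas Postn was at 2866 CPM in fibroblasts and at most 79.8 elsewhere. Summed tumor markers were higher with Hk2 in 1 of 7 mice and myoepithelial markers in 0 of 7, and their part in these differences was not tested.

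**Figure D5:**
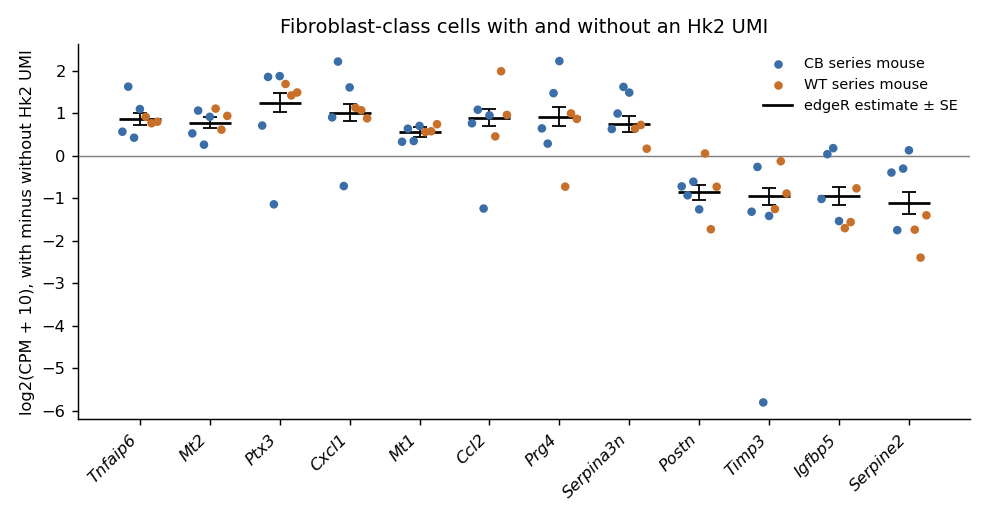
Difference in log2(CPM + 10) between fibroblast-class cells with and without an Hk2 UMI (vertical axis) for the 12 called genes; each point is 1 mouse, colored by title series, and black bars are the edgeR estimate ± SE. The 8 genes at the left lie mostly above 0 and the 4 at the right mostly below it, the lowest Timp3 point being mouse 3, which had no Timp3 UMI in its 7 cells.

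By list, 3 of 7 tested genes of the inflammatory-fibroblast list were higher with Hk2 and none lower, beside 1.46% and 0.730% over all genes, with a median log2 difference of 0.80 beside -0.00083 over all genes. All 7 tested had a positive difference, of which 4 did not pass. The lists were chosen with earlier results of these data known, so these shares are a description and no test of the list. Has1 (0.35 ± 0.20, SE, edgeR adjusted p = 0.55) and Cxcl12 (0.36 ± 0.19, SE, edgeR adjusted p = 0.49) were far from the threshold, and Il6 (0.74 ± 0.21, SE, edgeR adjusted p = 0.083) and Ccl7 (0.80 ± 0.22, SE, edgeR adjusted p = 0.072) were nearer to it. Of the untested members, Saa3 was at 402 CPM with Hk2 and 187 without (higher in 5 of 7 mice) and Lif at 25.8 and 32.4 (higher in 1 of 7). The immediate-early list, 7 of 7 tested and including Fos, Jun and Egr1, had none called and a median of 0.08. Of the contractile list only Postn was tested. From the hexokinase pathway lists, Ldha was tested and did not pass (-0.08 ± 0.21, SE). Gfpt2 was at 796 CPM with Hk2 and 451 without and higher in 7 of 7 mice, but missed the threshold (0.81 ± 0.22, SE, edgeR adjusted p = 0.072, with 0.048 to 0.256 when each mouse was left out). It passed with at least 8 marker UMIs (edgeR adjusted p = 0.037), with at least 500 genes per cell (edgeR adjusted p = 0.0499) and in every cell of the collagen gate, that is all cells with at least 5 UMIs of the 4 fibroblast markers (log2 difference 1.27, edgeR adjusted p = 0.013). It did not pass in depth-matched cells (edgeR adjusted p = 0.054), with at least 3 marker UMIs (edgeR adjusted p = 0.075) or by DESeq2 (adjusted p = 0.073). Nor did it pass with no filter on low counts or without the mouse as block. No gene of the hypoxia-response and cell-cycle lists had enough counts for the test. Of the 10 hypoxia-response genes, Adm (236 CPM with Hk2 and 115 without), Ndrg1 (238 and 164) and Vegfa (116 and 62.4) had values above those without Hk2 in 7, 6 and 5 of 7 mice. P4ha1 (142 and 130) was higher in 3 of 7. Higd1a (43.3 and 60.2), Bnip3 (17.2 and 23.9), Pdk1 (11.1 and 11.5) and Ankrd37 (0 and 3.92) had the lower mean with Hk2, and Egln3 and Car9 had 4 UMIs and 1 UMI.

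No marker of another cell type passed the filter for the test, and their part in the differences was not tested. Tumor markers summed to 217 to 956 CPM in cells with Hk2 and 348 to 1382 without, higher with Hk2 in 1 of 7 mice. Macrophage markers summed to 0 to 203 and 0 to 219 CPM, higher in 0 of 7, with the 7 markers all detected. Endothelial markers summed to 0 to 232 and 28.4 to 256 CPM, with Cldn5 and Esam at 0, and pericyte or smooth muscle markers to 0 to 91.2 and 0 to 98.2 CPM, with Notch3 and Higd1b at 0. Myoepithelial markers were at most 108 and 169 CPM, higher with Hk2 in 0 of 7 mice, hormone-sensing 182 and 148, T/NK 68.6 and 85.1, B/plasma 57.9 and 54.3, neutrophil 30.4 and 7.61, and dendritic 68.6 and 7.55 CPM. Erythroid markers reached 9425 and 9210 CPM, both in mouse 8.

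The list of called genes was short and depended on single mice. With cells without Hk2 matched in depth, 6 genes were called higher and 6 lower, among them 10 of the 12. The matching took up to 3 cells without Hk2 for each cell with it. In mice 1, 2, 5 and 8 this took in every cell without Hk2. Depth was thus left unmatched in these mice, and the setting is no full control for depth. Without the mouse as block no gene was called, by edgeR, and 16 had an unadjusted p under 0.05. Leaving out mouse 2, 4, 7 or 8 left 5, 4, 7 and 6 called genes. Tnfaip6, Mt2 and Ptx3 were called with any 1 mouse left out, Cxcl1 and Postn in 5 of 7 such fits, Timp3 in 4, Mt1 and Igfbp5 in 3, Ccl2 and Serpine2 in 2, and Prg4 and Serpina3n in 1. Prg4 and Serpina3n were also the calls lost in the depth-matched cells (edgeR adjusted p = 0.095 and 0.057). Taking every cell of the collagen gate, whatever other markers it held, raised the cells with Hk2 to 239 and the calls to 44 higher and 9 lower of 1380. Among them were the 8 genes called higher but none of the 4 called lower, whose edgeR adjusted p was 0.69 for Postn, 0.096 for Timp3, 0.453 for Igfbp5 and 0.074 for Serpine2. The higher calls held 6 genes of the inflammatory-fibroblast list. Ccl7 (log2 difference 1.35, edgeR adjusted p = 0.015), Cxcl12 (0.88, edgeR adjusted p = 0.022) and Has1 (0.93, edgeR adjusted p = 0.049) were added. Il6, Saa3 and Lif were not among the calls. The cell types in that gate were not balanced between the sides. Fibroblast markers summed to a median of 40803 CPM with Hk2 and 28118 without, higher in 6 of 7 mice. Tumor markers summed to 8617 and 10022 CPM (higher in 3 of 7), myoepithelial to 17.4 and 347 (0 of 7), pericyte or smooth muscle to 24.8 and 93.6 (0 of 7) and macrophage to 21.5 and 136 (1 of 7). The epithelial genes Krt7, Krt8 and Wfdc2 were among the 9 lower calls, and the part of other cell types in the calls was not tested.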

How the data were processed

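Single-cell mRNA of 7 tumors was profiled by Drop-seq. The authors used a mouse mm10 reference extended by the PyMT transgene for alignment and deposited whole UMI counts per gene and barcode for each tumor. The submitters' processing notes list STAR and FastQC without versions and the human builds hg19 and GRCh37.p13, in conflict with mm10, and the use of strand in counting is not given in the sources used here. Mitochondrial genes were left out. Barcodes with 200 to 6000 genes were kept, of 4000 to 7000 deposited per mouse. A cell joined a class with at least 5 UMIs of its marker list, and the 461 cells that passed several lists were left out. Hormone-sensing and myoepithelial cells that also passed the tumor list were kept in their class. No doublet caller was run. UMIs were summed per mouse and class (at least 10 cells and 5000 UMIs) and tested with edgeR 4.0.16 in R 4.3.3 (filterByExpr, TMM, quasi-likelihood, mouse as block, Benjamini-Hochberg over all genes, threshold 0.05). The sums of a class pair come from the same animal, so the mouse pairs them. DESeq2 1.42.0 was an alternative. The fits were also run on simulated counts with a fixed spread and no difference between mice, which leaves the pairing by mouse untested. Depth, 962677 to 4471473 UMIs per mouse in cells, limits low genes. Positions come from GENCODE on GRCm38, the promoter from RefSeq on GRCm38.p6.

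The members, marker lists and gene lists were chosen with earlier results of these data known, and the scoring of classes was set after marker sums were seen. Counts of called genes by list are therefore a description and no test of a list. Genes named were the hexokinases, members of the lists, the 5 genes most correlated with each of Hk1, Hk2 and Hk3, and up to 10 called genes per direction in the fibroblast comparison. Alternatives were other marker minimums (3 and 8 UMIs), at least 500 genes per cell, cells of 2 classes kept, other scaling, no low-count filter, no block, each mouse left out, each title series alone, and depth-matched cells. Taking every cell of the collagen gate was added after seeing the data. No deposited column of per-sample values was left unused.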

Additional observations from a re-analysis of the deposited data

Results flagged for a closer look

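Of 19 groups of per-mouse hexokinase levels checked, 4 had 1 mouse far from the others. Chance gives about 1 in 20 for continuous values, which does not apply to the Hk3 and Hkdc1 groups, where 1 or 2 UMIs in 1 mouse are enough. Hk2 in barcodes with under 200 genes was at 178 CPM in mouse 8, with the next mouse at 74.7. Hk3 in the hormone-sensing class was at 1.06 CPM in mouse 4 and in the fibroblast class at 3.09 CPM in mouse 8, each from 1 UMI with every other mouse at 0. Hkdc1 in the tumor class was at 2.11 CPM in mouse 3, from 2 UMIs, with the next mouse at 0.533.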

How the results depend on the processing

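Hk2 kept its direction and call in the fibroblast class (log2 difference 2.68 to 3.49) and the macrophage class (1.18 to 1.67) under all 10 alternatives that left out no single mouse and with each mouse left out. Hk1 in the macrophage class kept its call wherever it passed the filter on low counts, which it did not in the CB mice alone or without mouse 7. For Hk2 in the T/NK class the log2 difference was -1.04 with at least 3 marker UMIs, -1.06 with at least 500 genes per cell and -1.79 in the WT mice alone, none of which passed, and its mean level was 24.5 and 21.8 CPM under the first and second of these. In the endothelial class Hk2 passed only with cells of 2 classes kept in the larger (fitted value -7.10, adjusted p 0.0499 by edgeR, from sums with no Hk2 UMI, so no bound). In fibroblasts with and without Hk2, genes called higher numbered 2 with no filter on low counts, 44 in the collagen gate and 3 to 10 leaving out each mouse in turn. Genes called lower numbered 8 with at least 8 marker UMIs, 9 with no filter, 9 in the collagen gate and 1 to 7 leaving out each mouse. With no replicate block, that is without pairing by mouse, 0 genes were called higher and 0 lower (16 at an unadjusted p under 0.05), and no hexokinase call between classes changed. The causes were not tested. Few UMIs limit Hk3, Hkdc1 and the endothelial and T/NK classes.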

Other observations

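Cells that passed no marker list held 8.78% of Hk2 UMIs and 6.31% of Hk1 UMIs with 9.16% of all UMIs. Among fibroblasts, 6 cells with at least 5 Hk2 UMIs held 12.2% of the Hk2 UMIs of the class. None of the 6 cell-cycle genes had enough counts for the test. The mean level in fibroblasts with and without Hk2 was 58.6 and 10.8 CPM for Top2a, 44.0 and 21.9 for Mki67 and 29.8 and 0 for Ccnb1, each higher with Hk2 in 3 of 7 mice. It was 12.1 and 7.43 CPM for Cdk1 (higher in 1 of 7), 9.05 and 3.77 for Mcm5 (2 of 7) and 54.9 and 77.8 for Pcna (2 of 7).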
